A study of Mus musculus with 60 samples.

Results

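The genes described here are 9 genes whose products mark or are secreted by the hormone-producing cells of the gut lining, the enteroendocrine cells: Chga, Chgb, Tph1, Gcg, Pyy, Insl5, Sst, Nts and Cck. They were chosen by symbol from the 27179 genes of a colon count table. All 9 of the 9 were in the table, and all 9 passed edgeR's filter on low counts, which kept 18057 genes.

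Enteroendocrine cells are rare epithelial cells that sense the contents of the gut and release peptides or serotonin towards nerves, neighbouring cells and the blood. In the colon the main kinds are enterochromaffin cells, which make serotonin, L cells, which make glucagon-like peptides, peptide YY and insulin-like peptide 5, and D cells, which make somatostatin. Neurotensin and cholecystokinin are made mainly by cells of the small intestine. Somatostatin is also made by enteric neurons of the gut wall.

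RNA was measured in mid-colon of 30 CIA mice and 30 naïve mice, 5 of each at ZT0, ZT4, ZT8, ZT12, ZT16 and ZT20, where ZT0 is lights on and ZT12 lights off. CIA mice were male DBA/1 animals, 9 to 10 weeks old when immunised, that received bovine type II collagen in Complete Freund's adjuvant and later a collagen boost, and they were sampled 7 days after joint disease appeared. The naïve mice were housed with them and sampled at the same times. Effects of arthritis and of the immunisation with adjuvant cannot be told apart with these 2 groups, and each time point came from different mice.

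Each library came from 1 mouse and a whole 5 mm piece of gut, so muscle, nerves and epithelium were measured together. CIA libraries held between 31382664 and 57564488 counts, and naïve libraries between 25840240 and 61425974. Levels are CPM, counts scaled to a common library size with edgeR's TMM factors, and log2 fold changes are CIA over naïve. The p-values describe the spread between mice. In tissue RNA of this kind, fewer cells of a type and less RNA per cell cannot be told apart. Epithelial markers fitted the tissue label, with summed levels of 12367 to 24504 CPM in CIA and 12838 to 21732 CPM in naïve colons over 14 genes. Pancreatic islets also make Gcg, Sst and Pyy. Of 10 pancreas markers 8 did not pass the filter, with the islet gene Ins1 at 0 counts in every library, and 2 passed: Cela1, at 148.9 ± 79.4 CPM in CIA and 167.3 ± 91.2 CPM in naïve colons, and Cpb1, at 0.287 ± 0.190 CPM in CIA and 0.412 ± 0.235 CPM in naïve colons. The part of pancreatic RNA in the results was not tested.

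The sequences before the start sites of 6 of the genes are shown because cAMP signalling acts on several hormone genes through the cAMP response element (CRE). Each run is the 150 bases before a RefSeq start site (GRCm38.p6), read on the strand of the gene. Capitals mark the CRE half-site TGACG, which lies within the full CRE TGACGTCA, the E-box CACGTG bound by the clock factors and the TATA box TATAAA, each searched on both strands.
Chgb (chr2:132781492-132781641, plus strand): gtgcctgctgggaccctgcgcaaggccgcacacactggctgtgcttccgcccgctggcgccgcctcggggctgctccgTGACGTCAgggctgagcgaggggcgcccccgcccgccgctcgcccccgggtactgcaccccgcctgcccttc
Sst (chr16:23890845-23890994, minus strand): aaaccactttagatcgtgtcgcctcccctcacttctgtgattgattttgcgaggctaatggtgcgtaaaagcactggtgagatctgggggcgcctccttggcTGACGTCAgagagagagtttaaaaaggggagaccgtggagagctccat
Chga (chr12:102554791-102554940, plus strand): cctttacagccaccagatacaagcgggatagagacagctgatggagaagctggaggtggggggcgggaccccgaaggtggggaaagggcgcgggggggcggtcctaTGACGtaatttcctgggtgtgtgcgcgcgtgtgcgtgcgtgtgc
Tph1 (chr7:46667378-46667527, minus strand): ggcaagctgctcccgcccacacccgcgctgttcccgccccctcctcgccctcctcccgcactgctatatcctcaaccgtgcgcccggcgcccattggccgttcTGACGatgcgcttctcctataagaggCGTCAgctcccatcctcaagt
Cck (chr9:121495695-121495844, minus strand): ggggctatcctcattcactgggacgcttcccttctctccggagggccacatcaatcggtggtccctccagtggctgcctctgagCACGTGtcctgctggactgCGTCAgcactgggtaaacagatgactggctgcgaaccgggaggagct
Gcg (chr2:62483654-62483803, minus strand): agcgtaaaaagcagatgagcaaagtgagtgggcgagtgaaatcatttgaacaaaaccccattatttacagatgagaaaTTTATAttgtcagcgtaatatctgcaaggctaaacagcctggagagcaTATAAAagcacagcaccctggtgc

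The full CRE began 72 bases before the start site of Chgb and 48 bases before that of Sst. The search covered windows of 300 bases, from 250 before to 50 after a start, and the 9 genes had 12 such windows, since Insl5, Tph1 and Pyy have 2 each. A full CRE was in 2 of the 12 windows, against 1.80% of 32544 windows of all genes. The half-site, within a full CRE or not, was in 7 of the 12 windows (6 genes), against 20.9% of all windows. The E-box was in 1 of the 12, that of Cck, against 7.17%, and the D-box TTATGTAA, which binds Dbp and its relatives, was in 0 of the 12, against 0.931%. TATAAA was in 4 of the 12 windows (Gcg, Insl5 and Chga), against 13.6%. The pair with a full CRE, Chgb and Sst, went in opposite directions between CIA and naïve colons. These letters are a description of the windows, not a measure of binding.

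Over all time points, 4 of the 9 genes were lower in CIA colons (Chga, Chgb, Gcg and Tph1), 1 was higher (Sst) and 4 did not pass the threshold (Pyy, Insl5, Nts and Cck). Of all 18057 genes tested, 20.4% were called lower and 17.6% higher in CIA by the same edgeR quasi-likelihood F test at an adjusted p of 0.05. The median log2 fold change of the 9 genes was −0.32, beside −0.02 over all genes tested. None of the 9 differed by more than 1 on the log2 scale, and CIA and naïve libraries overlapped for each gene.

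Chga and Chgb encode chromogranin A and chromogranin B, acidic proteins that fill the secretory granules of nearly all enteroendocrine cells. Chga (chromosome 12) had a lowest, median and highest level of 28.04, 51.8 and 65.1 CPM in CIA colons, against 32.7, 59.9 and 91.1 CPM in naïve colons. Chgb (chromosome 2) had 39.8, 74.0 and 99.7 CPM in CIA colons, against 42.2, 94.1 and 158.7 CPM in naïve colons. The ranges shared their lower ends, and it was the upper part of the naïve range that CIA libraries did not reach. For each of these genes, 27 of 30 CIA libraries lay below the naïve median.

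Chga averaged 50.4 ± 9.04 CPM in CIA and 59.8 ± 14.9 CPM in naïve colons (SD, n = 30 each), and the fitted difference on the log2 scale was −0.25 (SE 0.083, adjusted p = 0.0162, edgeR). Chgb averaged 73.2 ± 16.4 CPM in CIA and 95.2 ± 26.9 CPM in naïve colons and the fitted log2 difference −0.38 (SE 0.097, adjusted p = 0.00158, edgeR). The mean of each was lower in CIA at 6 of 6 time points.

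Tph1 encodes tryptophan hydroxylase 1, the rate-limiting enzyme of serotonin synthesis in enterochromaffin cells. It had a lowest, median and highest level of 2.38, 6.20 and 15.4 CPM in CIA colons, against 2.38, 7.76 and 18.4 CPM in naïve colons. The groups shared nearly their whole range, and 20 of 30 CIA libraries lay below the naïve median. The log2 fold change was −0.45 (SE 0.154, adjusted p = 0.0175, edgeR), and the CIA mean was lower at 5 of 6 time points.

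Gcg encodes proglucagon, which L cells cut into glucagon-like peptides. Its lowest, median and highest levels were 26.4, 60.4 and 96.4 CPM in CIA colons, against 49.7, 75.5 and 130.3 CPM in naïve colons. Here the whole range lay lower in CIA, with 26 of 30 CIA libraries below the naïve median. The means were 60.9 ± 16.1 CPM in CIA and 76.2 ± 16.6 CPM in naïve colons, and the log2 fold change was −0.32 (SE 0.090, adjusted p = 0.00324, edgeR). The CIA mean was lower at 5 of 6 time points.

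The other L cell peptides, Pyy and Insl5, were not called. Pyy encodes peptide YY, which slows transit and reduces appetite. It had 41.7, 88.9 and 188.8 CPM (lowest, median and highest) in CIA colons, against 22.8, 100.5 and 164.5 CPM in naïve colons. Its mean was nearly the same in both, 97.3 ± 43.5 CPM in CIA and 96.6 ± 41.2 CPM in naïve colons. The log2 fold change was 0.01, with an approximate interval of 2 SE from −0.32 to 0.35 (adjusted p = 0.969, edgeR).

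Insl5 encodes insulin-like peptide 5, a hormone made mainly in the colon and rectum. It had 13.4, 55.5 and 175.2 CPM (lowest, median and highest) in CIA colons, against 3.30, 81.7 and 160.8 CPM in naïve colons. The lowest and the highest of the 60 libraries differed by 53.1 times. The log2 fold change was −0.33 with an interval from −0.85 to 0.19 (adjusted p = 0.328, edgeR), so a fall as large as that of Gcg and no fall both lie within its error.

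Sst encodes somatostatin, which inhibits the release of other gut hormones, and was the only one of the 9 called higher in CIA. Its lowest, median and highest levels were 7.47, 16.4 and 43.3 CPM in CIA colons, against 3.69, 11.2 and 32.7 CPM in naïve colons. All 3 values were higher in CIA, and 21 of 30 CIA libraries lay above the naïve median. The means were 18.3 ± 9.58 CPM in CIA and 12.7 ± 6.88 CPM in naïve colons, and the fitted log2 difference was 0.53 (SE 0.182, adjusted p = 0.0180, edgeR). The CIA mean was higher at 4 of 6 time points.

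Nts encodes neurotensin and Cck cholecystokinin. Nts had 0, 0.446 and 9.04 CPM (lowest, median and highest) in CIA colons, against 0, 0.222 and 16.5 CPM in naïve colons. It was at 0 in 1 CIA and 2 naïve libraries and reached 568 counts in another. A few libraries carried most of its counts, and the mean and the median went opposite ways: CIA colons averaged 1.17 CPM and naïve colons 2.09 CPM, while the median was higher in CIA. The fitted log2 fold change was −0.84 with an SE of 0.58 (adjusted p = 0.255, edgeR). Without naïve ZT12 replicate 1 it was −0.46 and without CIA ZT20 replicate 4 it was −1.22.

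Cck was low in every library, at 0.252, 2.23 and 3.72 CPM (lowest, median and highest) in CIA colons, against 0.448, 1.98 and 3.69 CPM in naïve colons. Its log2 fold change was 0.24 with an interval from −0.16 to 0.64 (adjusted p = 0.352, edgeR).

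**Figure D1:**
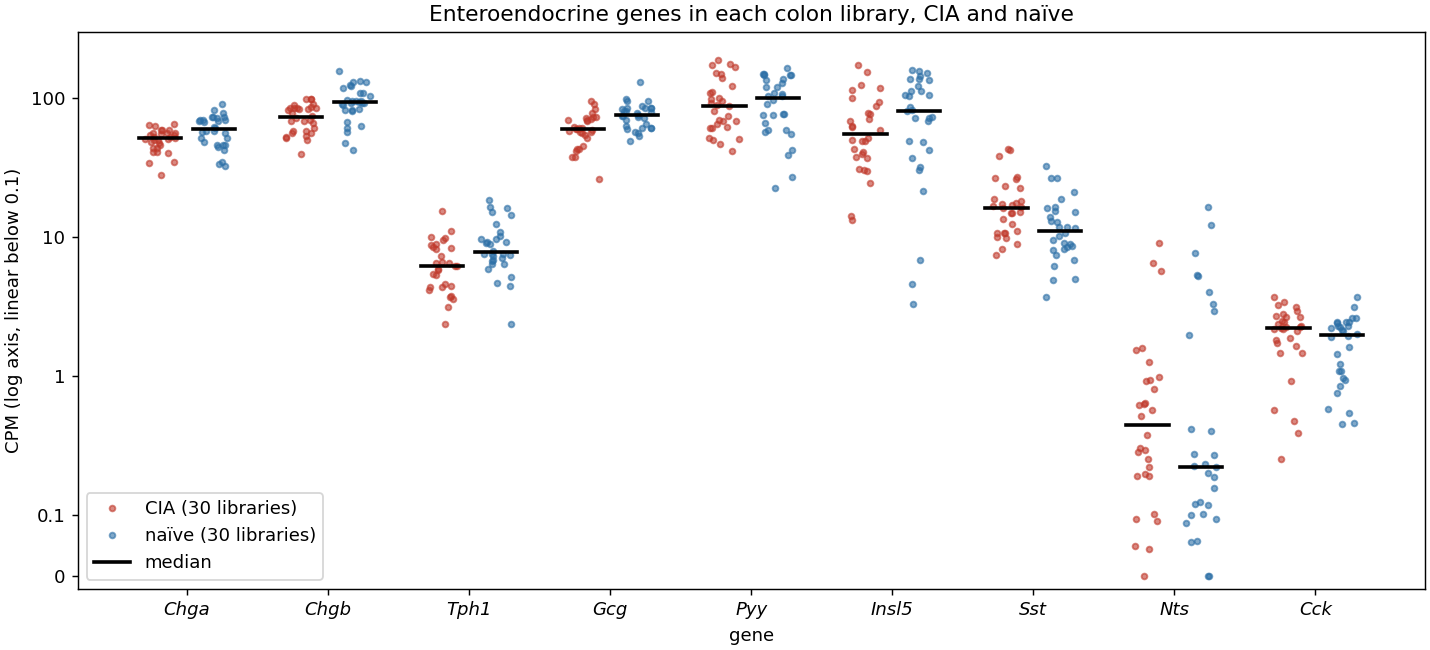
CPM of the 9 genes (y axis, logarithmic above 0.1 CPM) in each of the 30 CIA libraries (red, left of each pair) and 30 naïve libraries (blue, right), with black bars at the medians. The medians of Chga, Chgb, Tph1 and Gcg are lower and that of Sst is higher in CIA, and the points of the groups overlap for all 9 genes; Insl5 and Nts have the widest scatter.

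The amount of muscle RNA in the pieces of colon moved with these results. All 16 of 16 smooth muscle markers were called higher in CIA, with a median log2 fold change of 0.68, and their summed level ranged from 15568 to 51791 CPM in CIA and from 8646 to 39688 CPM in naïve colons. Enteric neuron markers were higher for 16 of 17 (median 0.57) and glia markers for 5 of 8 (median 0.55). The 14 epithelium markers stood at a median of 0.04, with 1 higher and 3 lower, and the 8 goblet cell markers at −0.17, with 0 higher and 2 lower.

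With the smooth muscle score, the mean log2 CPM of the markers, as a further term of the model, 0 of the 9 genes were called by edgeR. The log2 fold changes were then 0.09 for Chga, 0.02 for Chgb, 0.09 for Tph1, −0.15 for Gcg and −0.16 for Sst, with adjusted p-values of 0.574, 0.927, 0.813, 0.438 and 0.697. Treatment and this score differ together, so their shares cannot be told apart by such a fit. With the epithelium score as the term, 4 genes were called lower and 1 higher, as without it. That score averaged 9.76 in CIA and 9.75 in naïve colons, so this term could move the pooled fold changes little. With the enteric neuron score, which was added after the values were seen, 0 were called and Sst stood at −0.09 (adjusted p = 0.837, edgeR). Chga then stood at −0.07, Chgb at −0.11, Tph1 at −0.06 and Gcg at −0.06.

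**Figure D2:**
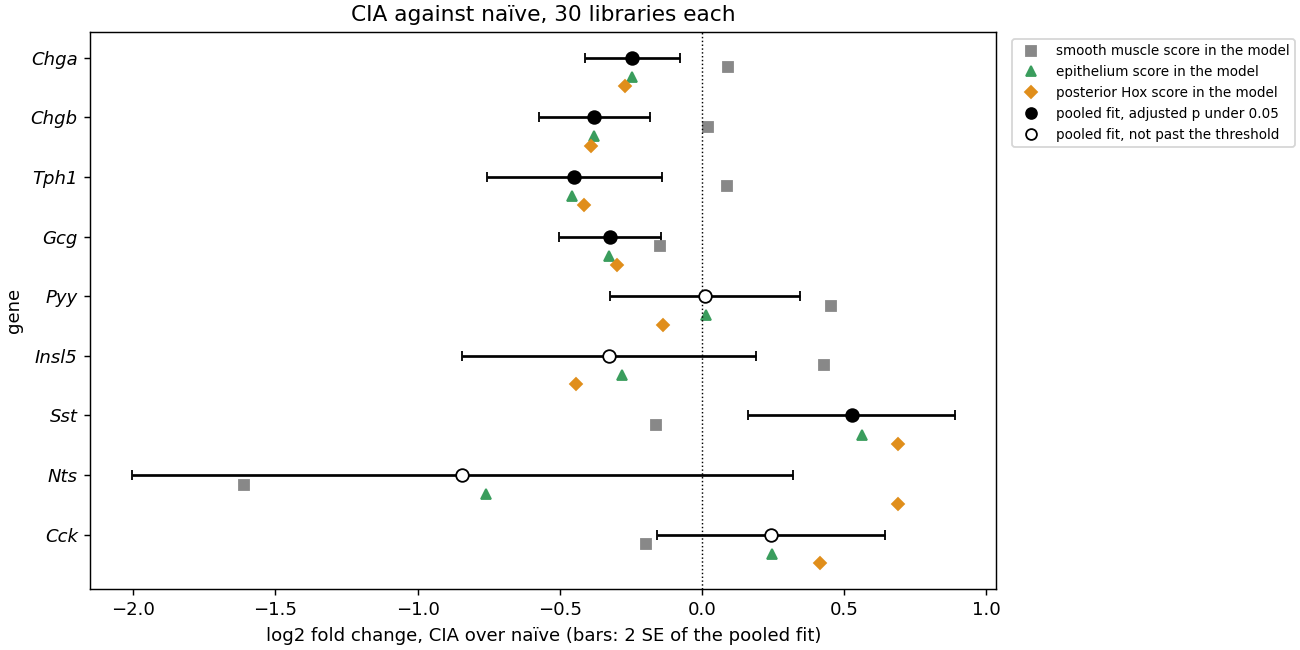
Log2 fold change of each of the 9 genes, CIA over naïve (x axis), from the pooled edgeR fit of 60 libraries (circles, filled where the adjusted p was under 0.05, with bars of 2 SE), and with the smooth muscle score (grey squares), the epithelium score (green triangles) or the posterior Hox score (orange diamonds) as a further term. Chga, Chgb, Tph1 and Gcg lie left of 0 and Sst right of it in the pooled fit, and with the smooth muscle score all 5 lie between −0.16 and 0.09.

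Per kilobase of exon, which allows levels of different genes to be set side by side, Pyy was highest in both groups, at 154 ± 68.9 CPM per kilobase in CIA and 153 ± 65.2 in naïve colons. Insl5 followed at 92.0 ± 55.7 in CIA and 115.5 ± 67.2 in naïve colons, and these 2 neighbours overlapped widely. Gcg came next at 40.8 ± 10.8 in CIA and 50.997 ± 11.1 in naïve colons, then Chgb at 26.7 ± 5.997 in CIA and 34.7 ± 9.81 in naïve colons. Sst stood at 25.3 ± 13.3 in CIA and 17.6 ± 9.55 in naïve colons, and Chga at 18.3 ± 3.28 in CIA and 21.7 ± 5.41 in naïve colons. Sst was thus the fifth in CIA and the sixth in naïve colons, with Chga in the other place, a change of order within the spread of both genes. Cck, Tph1 and Nts lay lowest, with means between 0.934 and 1.68 CPM per kilobase in either group, and their order was not separated from the spread.

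Within single time points, 1 of 54 comparisons of a gene was called by edgeR, Sst at ZT20. The shares of all genes called were 0.0222% at ZT0, 0.858% at ZT4, 0.0332% at ZT8, 9.28% at ZT12, 0.00554% at ZT16 and 13% at ZT20. At ZT20 the 5 CIA mice had 9.90, 13.4, 42.5, 38.8 and 18.9 CPM of Sst, and the 5 naïve mice had 13.03, 11.6, 11.9, 8.65 and 3.69 CPM. Of the CIA libraries, 4 of 5 lay above every naïve library and 1 lay within their range. The log2 fold change was 1.34 (SE 0.428, adjusted p = 0.0325, edgeR). The call was lost without CIA ZT20 replicate 3 (log2 fold change 1.05, adjusted p = 0.134, edgeR), without any 1 of CIA ZT20 replicate 4 and naïve ZT20 replicates 2, 4 and 5, and in a fit of the ZT20 libraries alone (adjusted p = 0.0794). It was also lost with the smooth muscle score (0.53, adjusted p = 0.576, edgeR) or the epithelium score (0.93, adjusted p = 0.0776, edgeR) as a further term. With the posterior Hox score, a fit added after the values were seen, the call was kept (1.30, adjusted p = 0.00669, edgeR). Halved counts (adjusted p = 0.0306), no filter on low counts (0.0418) and a replicate block (0.0409, edgeR for each) kept it too.

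At ZT12, Gcg, Tph1 and Chgb had their largest differences of the day without passing the threshold. Gcg averaged 45.3 ± 9.72 CPM in CIA and 69.1 ± 13.4 CPM in naïve colons (SD, n = 5 each), a log2 fold change of −0.61 (adjusted p = 0.0545, edgeR). Tph1 averaged 4.40 ± 1.15 CPM in CIA and 8.56 ± 4.85 CPM in naïve colons, a log2 fold change of −0.95 (adjusted p = 0.0577, edgeR). Chgb averaged 57.2 ± 6.58 CPM in CIA and 86.8 ± 31.6 CPM in naïve colons, a log2 fold change of −0.60 (adjusted p = 0.0962, edgeR). At ZT16 the difference of Gcg was 0.02 and that of Tph1 0.00 on the same scale.

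The difference between treatments was then tested for a change over the day. By edgeR's test of treatment by time, 0 of the 9 genes passed, with 0% of all genes called, and 0 of the 9 had an unadjusted p under 0.05, against 817 of all genes. The smallest unadjusted p among the 9 was that of Sst, and its adjusted p was 0.965. The larger values at ZT12 and ZT20 were therefore not shown to differ from those at other times.

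Daily rhythms were described by a cosine of 24 h in log2 CPM and by a choice among 5 models of presence, loss, gain, change or absence of a rhythm, with a weight of at least 0.6 needed for a class. In CIA colons 1 of the 9 genes was rhythmic by this choice, against 37.3% of all genes, and in naïve colons 2 of the 9, against 39.6%. The limma F test gave 1 of the 9 in CIA, against 29.7% of all genes, and 2 of the 9 in naïve colons, against 31.8%. Of the 9 genes, 6 were arrhythmic, a class of 35.7% of all genes, and Chgb had no class, with a weight of 0.508 for no rhythm and 0.377 for a shared one.

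Tph1 was the gene with a rhythm shared by both groups (weight 0.975), a class that held 34.7% of all genes. Its mean was lowest at ZT12 in CIA colons (4.40 CPM) and at ZT8 in naïve colons (6.53 CPM), and highest at ZT20 in both, at 9.20 ± 1.18 CPM in CIA and 12.99 ± 3.65 CPM in naïve colons. At ZT20 the CIA mice had 11.1, 8.24, 8.36, 9.53 and 8.77 CPM, and the naïve mice 12.6, 9.66, 9.79, 14.5 and 18.4 CPM. The groups overlapped at ZT20. The fitted amplitude was 0.53 log2 units with a peak at ZT20.1 in CIA (adjusted p = 0.00630, limma) and 0.44 with a peak at ZT20.3 in naïve colons (adjusted p = 0.0481, limma). The fitted peak exceeded the trough by 2.07 times in CIA and 1.84 times in naïve colons. The class was kept in 60 of 60 fits that left out 1 library. The F test in naïve colons passed in 41 of these 60, with a highest adjusted p of 0.110. That test used naïve libraries only, so fits without a CIA library hardly bear on it. The count of the 9 genes passing it fell in 24 of 60 fits, each without a naïve library.

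Sst was placed in the class of lost rhythm (weight 0.606, with 4.65% of all genes in that class). In naïve colons its fitted amplitude was 0.54 log2 units with a peak at ZT13.9 (adjusted p = 0.0380, limma). In CIA colons the amplitude was 0.25 (adjusted p = 0.491, limma). The same class held 10 of 17 enteric neuron markers and 3 of 8 enteric glia markers, with naïve peaks at ZT12.2 for Prph, ZT12.3 for Snap25 and ZT12.8 for Sox10. Their part in the pattern of Sst was not tested. The naïve mice had 26.9, 16.6, 18.8, 12.8 and 15.3 CPM at ZT12 and 6.23, 8.92, 10.2, 9.62 and 4.92 CPM at ZT4, 2 sets that did not overlap. The CIA mice had 10.7, 26.6, 16.6, 12.5 and 8.90 CPM at ZT12 and 14.9, 7.47, 23.5, 10.7 and 14.98 CPM at ZT4, 2 sets that did. ZT12 and ZT4 had the highest and the lowest naïve mean (18.1 and 7.98 CPM). In CIA the highest mean was at ZT20 (24.7 CPM). The choice of these 2 times follows the naïve values, so the contrast is a description and not a test of a lost rhythm.

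The difference of the rhythms themselves did not pass for Sst or any other of the 9 genes (0 of 9, against 0.0222% of all genes), and the adjusted p of Sst was 0.731 by edgeR. Of the 60 fits that left out 1 library, 21 kept the class of lost rhythm and 39 gave no class.

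**Figure D3:**
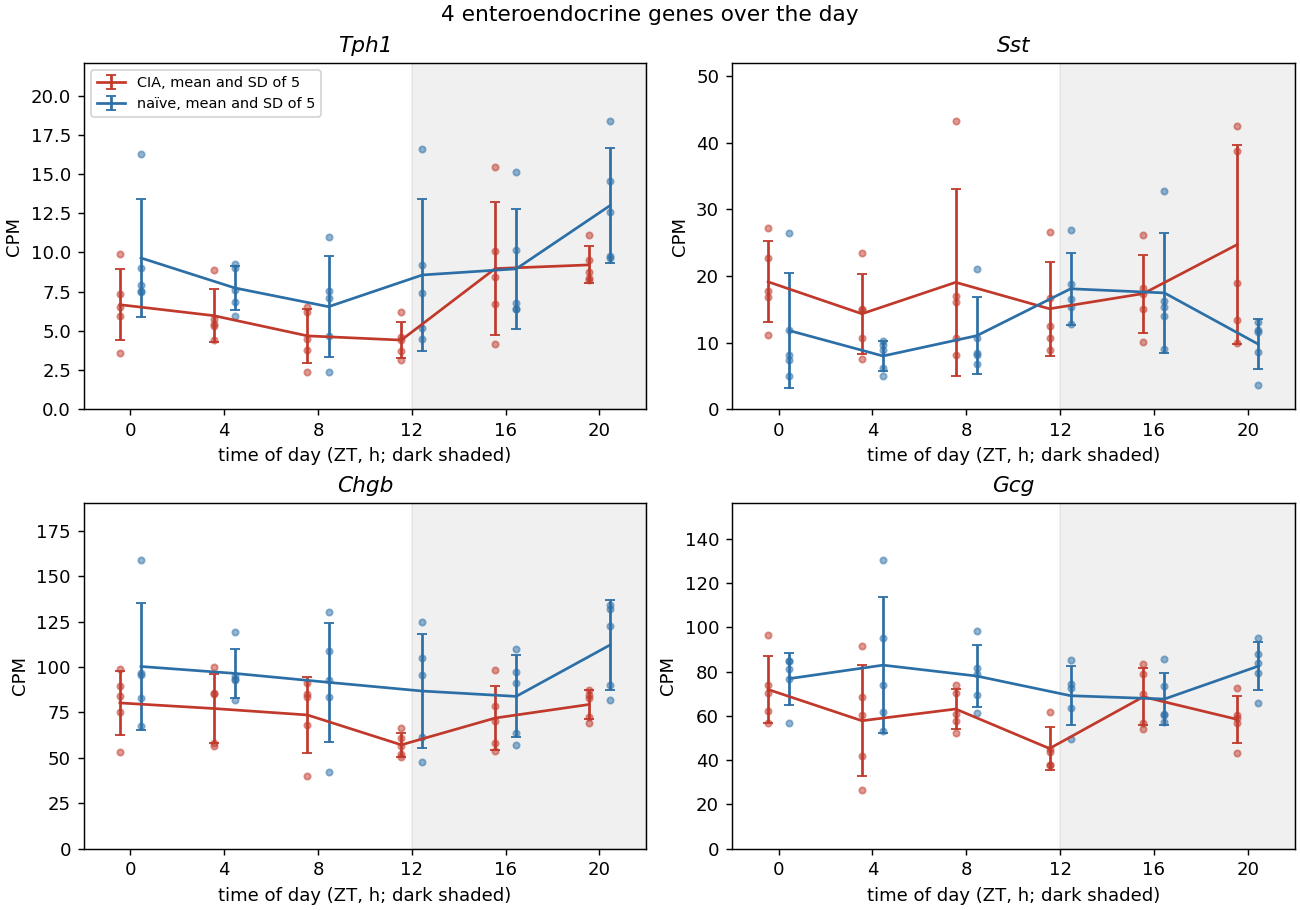
CPM of Tph1, Sst, Chgb and Gcg (y axes, from 0) by time of day (x axis, ZT in hours, dark phase shaded) in CIA (red) and naïve (blue) colons, with a point per mouse and lines through means with SD bars of 5 mice. Tph1 is highest at ZT20 in both groups, Chgb and Gcg lie lower in CIA at ZT12 and ZT20, and Sst in naïve mice is highest at ZT12 and ZT16 while 2 CIA mice at ZT20 lie near 40 CPM.

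The 9 genes also varied between mice of the same group. After removal of the 12 means of treatment and time, 26 of 36 pairs of genes were correlated over 60 libraries (permutation within groups, two-sided, adjusted over the 36 pairs), 14 with a positive and 12 with a negative r. With 100000 resamples no p could be smaller than 1e-05, or 2.77e-05 once adjusted. The sign of r was the same in CIA and naïve libraries for 33 of 36 pairs. Pairs among all other genes were not tested in this way, so the count of 26 is not shown to be particular to these genes. Of 54 relations of the 9 genes with marker scores of other cells or of position, 41 passed as well.

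A first set joined Chga, Chgb and Tph1, the granule proteins and the enzyme of enterochromaffin cells. Chga and Chgb had r = 0.90 and rho = 0.86 (adjusted permutation p = 2.77e-05 for both), and r = 0.87 without the 2 libraries farthest from the median. Chgb and Tph1 had r = 0.84 and rho = 0.78 (adjusted permutation p = 2.77e-05 for both), and r = 0.80 without those farthest. Chga and Tph1 had r = 0.76 and rho = 0.67 (adjusted permutation p = 2.77e-05 for both), and r = 0.70 without those farthest. Within treatments, r of Chga with Chgb was 0.89 in CIA and 0.91 in naïve libraries. The sets were not separate. Chga also had r = 0.50 with Pyy (rho = 0.57) and −0.53 with Cck (rho = −0.58), each with an adjusted permutation p of at most 0.00137. Chgb had r = 0.35 with Gcg (rho = 0.33, adjusted permutation p = 0.0106 and 0.0260). Tph1 with Pyy did not pass (r = 0.15). The r of Chga with Pyy was 0.70 in CIA and 0.37 in naïve libraries, and that of Chgb with Gcg 0.62 and 0.14.

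A second set joined the L cell peptides Pyy and Insl5, with r = 0.95 and rho = 0.96 (adjusted permutation p = 2.77e-05 for both), r = 0.94 without the 2 farthest libraries, and 0.96 in CIA as in naïve libraries. Gcg, also a gene of L cells, did not follow them: its r was 0.03 with Pyy (rho = 0.09, adjusted permutation p = 0.810 and 0.521) and 0.13 with Insl5 (rho = 0.16, adjusted permutation p = 0.326 and 0.293).

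Another set joined Sst, Nts and Cck and ran against Pyy and Insl5. Sst and Nts had r = 0.69 and rho = 0.71, Sst and Cck r = 0.55 and rho = 0.60, and Nts and Cck r = 0.58 and rho = 0.65 (adjusted permutation p = 2.77e-05 for each), and without the 2 farthest libraries r was 0.69, 0.55 and 0.59. Insl5 had r = −0.87 with Nts (rho = −0.85), −0.78 with Sst (rho = −0.78) and −0.62 with Cck (rho = −0.71), each with an adjusted permutation p of 2.77e-05. Without the 2 farthest libraries these were −0.87, −0.74 and −0.70. Libraries above their group mean in Insl5 and Pyy thus tended to lie below it in Nts, Sst and Cck in both treatments. The r of Insl5 with Nts was −0.84 in CIA and −0.88 in naïve libraries.

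**Figure D4:**
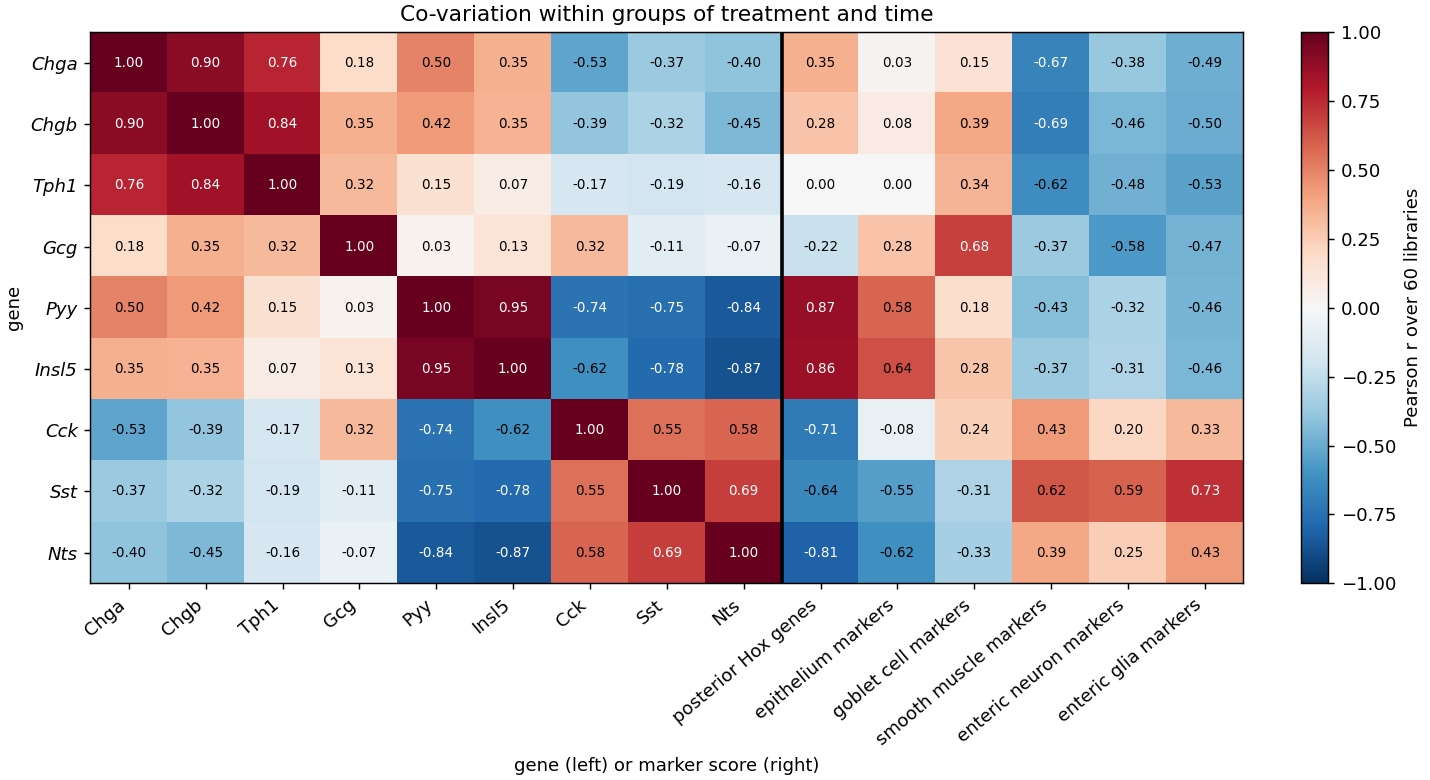
Pearson r over 60 libraries, after removal of the 12 group means, between the 9 genes (rows and left columns) and between the genes and 6 marker scores (right columns), with red for positive and blue for negative values and r printed in each field. Chga, Chgb and Tph1 form a red block (0.76 to 0.90), Pyy and Insl5 another (0.95), and Cck, Sst and Nts a further one (0.55 to 0.69) that is blue against Pyy and Insl5 (−0.62 to −0.87).

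Both of these opposed sets moved with genes of position along the gut. Posterior Hox genes are transcription factors whose expression rises towards the hind end of the body and, in the gut, towards the anus. The score of 8 of them had r = 0.87 with Pyy (rho = 0.85), 0.86 with Insl5 (rho = 0.86), −0.81 with Nts (rho = −0.80), −0.71 with Cck (rho = −0.72) and −0.64 with Sst (rho = −0.66). The adjusted permutation p of these was at most 8.31e-05, over 54 relations of the 9 genes with 6 scores, of which 41 passed. Without the 2 farthest libraries r was 0.84, 0.84, −0.77, −0.68 and −0.65 in the same order.

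Chga had an r of 0.36 with the Hox score (rho = 0.48, adjusted permutation p = 0.0259 and 0.000976). Chgb had one of 0.28 (rho = 0.35, adjusted permutation p = 0.0737 and 0.0186) and Tph1 one of 0.00 (rho = 0.06, adjusted permutation p = 1.00 and 0.663). The Hox genes themselves were called by treatment in 0 of 8 cases by edgeR. With their score as a further term, a fit added after the values were seen, Insl5 was called lower (log2 fold change −0.44, adjusted p = 0.0235, edgeR) and Cck higher (0.41, adjusted p = 0.0269, edgeR) in CIA. The other 5 calls were kept, with Sst at 0.69 (adjusted p = 6.2e-05, edgeR), and Nts turned to 0.69 (adjusted p = 0.0838). Whether the pieces were cut at differing places along the colon was not tested.

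**Figure D5:**
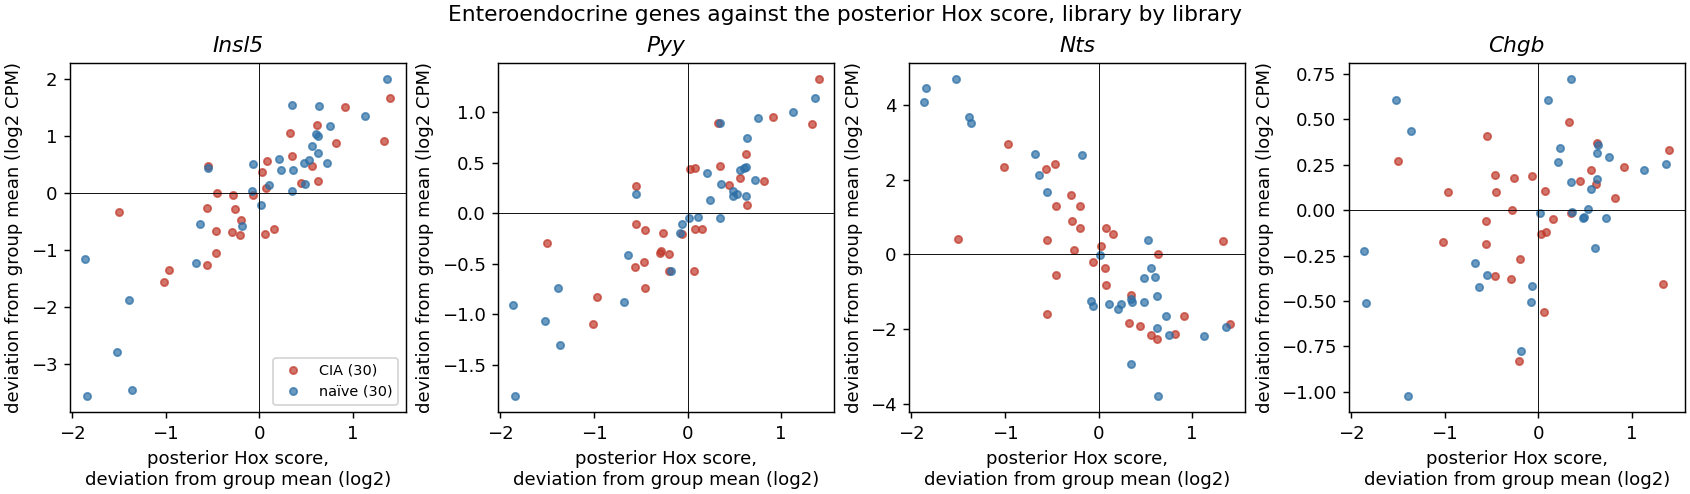
Deviation of log2 CPM of Insl5, Pyy, Nts and Chgb from the mean of their group (y axes) against the same deviation of the posterior Hox score (x axes) in 30 CIA (red) and 30 naïve (blue) libraries. Insl5 and Pyy rise with the score (r = 0.86 and 0.87) and Nts falls with it (r = −0.81) in both colours, while Chgb scatters (r = 0.28).

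The first set moved with the smooth muscle score, with r = −0.67 for Chga (rho = −0.70), −0.69 for Chgb (rho = −0.71) and −0.62 for Tph1 (rho = −0.63), each with an adjusted permutation p of at most 4.91e-05. Pyy (r = −0.43, rho = −0.46) and Insl5 (r = −0.37, rho = −0.49) were also negative with this score, and Nts (r = 0.39, rho = 0.48) and Cck (r = 0.43, rho = 0.48) positive, each with an adjusted permutation p of at most 0.00857. Sst had r = 0.62 (rho = 0.62) with smooth muscle, 0.73 (rho = 0.74) with enteric glia and 0.59 (rho = 0.63) with enteric neurons. These 3 had adjusted permutation p-values of at most 4.91e-05. Gcg had its largest r with the goblet cell score, 0.68 (rho = 0.60, adjusted permutation p = 4.5e-05 and 8.31e-05), and 0.57 without the 2 farthest libraries. With the goblet cell score as a further term, added after the values were seen, Gcg stayed lower in CIA (−0.23, adjusted p = 0.0115, edgeR). Tph1 (−0.33, adjusted p = 0.0562) and Sst (0.43, adjusted p = 0.0505) then missed the threshold. Gcg also had r = −0.58 with the enteric neuron score (rho = −0.55, adjusted permutation p = 0.000222 and 0.000108). With that score as the term Gcg was not called (−0.06, adjusted p = 0.770, edgeR).

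The genes most like each of the 9 over the 60 libraries were taken by Pearson r after removal of the group means. Nts was followed by Hoxd8 (r = 0.91) and Hoxd3 (r = 0.90), more anterior Hox genes of the D cluster. Sst was followed by Gal (r = 0.88), which encodes the neuropeptide galanin of enteric neurons, and by Serpine2 (r = 0.86) and Plekhb1 (r = 0.85). Gal itself was higher in CIA, with a log2 fold change of 0.65 (adjusted p = 0.00336, edgeR).

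Pyy was most like Ppy (r = 0.96), which encodes pancreatic polypeptide, and next like Spink1 and Wfdc2. Ppy is a paralog of Pyy on the same chromosome, so that reads shared by them could add to this value. Insl5 was most like Thbs4, Clic6 and Sval1 (r = 0.96 each), and Cck most like B3gnt6 (r = 0.93), Pcsk5 and Slc13a1 (r = 0.91 each). Chga and Chgb were each other's closest gene, and Tph1 was closest to Chgb. Gcg was closest to Slc35a1, Map3k21 and Dcbld1 (r = 0.77 each), none of them a hormone gene.

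Other genes of the enteroendocrine programme were taken from lists written by hand. Fold changes and calls for these lists come from the pooled fit, without a marker score as a further term. With the smooth muscle or enteric neuron score as a term, Chga, Chgb, Tph1, Gcg and Sst were no longer called. Whether the differences of the listed genes remain with such a term was not tested. Of 20 transcription factors listed for enteroendocrine cells, 8 were lower and 2 higher in CIA, with a median log2 fold change of −0.36. Insm1, which drives endocrine differentiation, averaged 1.85 ± 0.529 CPM in CIA and 2.66 ± 0.865 CPM in naïve colons (log2 fold change −0.52, adjusted p = 0.000346, edgeR). The other listed markers of these cells were split. Neurod1 was lower (−0.38, adjusted p = 0.0137) and Rfx6 was not called (−0.30, adjusted p = 0.119, edgeR for both). From the granule list below, Cplx2 was higher (0.27, adjusted p = 0.00542) and Scgn was not called (0.17, adjusted p = 0.111, edgeR for both). Atoh1, the factor that opens the secretory lineage shared with goblet cells, averaged 44.7 ± 12.9 CPM in CIA and 64.7 ± 19.2 CPM in naïve colons (−0.54, adjusted p = 0.000125, edgeR). Foxa1 was lower as well (−0.34, adjusted p = 2.58e-05, edgeR), while Etv1 was higher (0.60, adjusted p = 0.000863, edgeR). Which cells of the gut wall gave the RNA of these factors was not tested.

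Genes of hormone processing and of the secretory granule went the other way from Chga and Chgb: 12 of 16 were higher in CIA and 0 lower, with a median of 0.42. Pcsk1n, an inhibitor of prohormone convertase 1, stood at 0.48 (adjusted p = 1.62e-05), Cpe, a carboxypeptidase that trims prohormones, at 0.60 (adjusted p = 3.59e-05), Rab3c at 0.58 (adjusted p = 1.78e-05) and Qpct at 0.37 (adjusted p = 3.8e-05, edgeR throughout). Neurons use many of these genes too. Pcsk1, the convertase of L cells, stood at −0.06 (adjusted p = 0.817, edgeR).

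Among 10 genes of serotonin synthesis, storage and clearance, 3 were higher and 2 lower, with a median of −0.06. Slc18a1, the monoamine transporter of enterochromaffin granules, was lower in CIA (−0.37, adjusted p = 0.000472, edgeR), as Tph1 was, and Slc18a2, the form used by neurons, was higher (0.39, adjusted p = 0.0133, edgeR). Qdpr, which recycles the cofactor of tryptophan hydroxylase, was lower (−0.22, adjusted p = 0.000133, edgeR).

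Of 10 further hormones and neuropeptides tested, 3 were higher and 1 lower, with a median of 0.12, led by Tac1 (0.47, adjusted p = 5.58e-05) and Penk (0.50, adjusted p = 0.00103, edgeR for both), which enteric neurons also make. Of 23 receptors for the hormones and serotonin, 8 were higher and 1 lower (median 0.31), among them the serotonin receptor Htr2b (0.70, adjusted p = 0.000206) and the pancreatic polypeptide receptor Npy4r (0.49, adjusted p = 0.000227, edgeR for both). Of 18 sensors of luminal contents, 5 were higher and 3 lower (median −0.05), with the short-chain fatty acid receptor Ffar3 at 0.48 (adjusted p = 0.000241, edgeR). Which cells of the gut wall gave the RNA of these receptors and sensors was not tested. Of 6 peptidases that break down gut peptides, Dpp4, which inactivates glucagon-like peptide 1, was lower (−0.40, adjusted p = 2.01e-05, edgeR) and 5 were not called. Beside these lists, 20.4% of all genes were lower and 17.6% higher in CIA.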

How the data were processed

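RNA from mid-colon of 60 mice was sequenced by the authors, who per the labels demultiplexed reads with bcl2fastq 2.17.1.14, trimmed them with Trimmomatic 0.36 and aligned them to mm10 (GRCm38) with STAR 2.5.3. The raw counts per gene were used as deposited by the authors. Of counts from 1 to 20, 74% were even, hence an alternative with halved counts. The members and all lists were chosen with earlier results of these data known. Named genes were the 9 members, the 3 genes most like each, and up to 4 of each list by smallest adjusted p. The enteroendocrine markers Neurod1, Insm1, Rfx6, Scgn and Cplx2 were named as well. Pcsk1 and Slc18a2 in the text, and the relations to scores, were chosen after values were seen.

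Genes passing edgeR's filterByExpr (12 groups, minimum count 10, minimum total 15) were tested over the whole table with edgeR 4.0.16 (quasi-likelihood F test, legacy form, R 4.3.3), and p-values were adjusted by Benjamini and Hochberg with a threshold of 0.05. Rhythms used limma 3.58.1 and Schwarz weights on log2 CPM with a prior count of 2. The SE is the absolute log2 fold change over the square root of F. Fold changes of genes at 0 in some libraries depend on the prior count. Correlations used 100000 resamples within the 12 groups. Symbols and promoters came from RefSeq GRCm38.p6, and exon lengths from GENCODE. Alternatives were DESeq2 1.42.0, other scaling, filters, covariates and libraries left out. The pipelines were tested on simulated data.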

Additional observations from a re-analysis of the deposited data

Results flagged for a closer look

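In 14 of 108 groups of 5 mice, 1 library stood apart from the other 4 in log2 CPM by Dixon's ratio (critical value 0.71), where chance gives about 1 in 20 groups. Of these libraries, 3 stood apart for more than 1 gene. Naïve ZT0 replicate 5 was low in Pyy (22.8 CPM), Gcg (56.7 CPM) and Insl5 (4.61 CPM). Naïve ZT8 replicate 2 was low in Chga (32.7 CPM) and Insl5 (21.5 CPM) and high in Nts (5.25 CPM). CIA ZT0 replicate 3 was high in Pyy (175 CPM) and low in Cck (0.252 CPM). Single genes stood apart in 6 further libraries: Chga in CIA ZT8 replicate 2 (28.04 CPM), Insl5 in CIA ZT12 replicate 2 (24.7 CPM), Cck in CIA ZT4 replicate 2 (0.572 CPM), Cck in naïve ZT16 replicate 3 (0.539 CPM), Tph1 in naïve ZT0 replicate 4 (16.3 CPM) and Nts in naïve ZT4 replicate 1 (5.37 CPM). The deviation of the posterior Hox score from its group mean was −1.84, −1.39 and 1.40 in the first 3 libraries, in the order named. In the 6 further libraries it was −0.20, −1.01, 1.33, 1.36, 0.35 and −1.86, in the order named. The causes of these outliers were not tested.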

How the results depend on the processing

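The 4 lower and 1 higher calls were kept in count with DESeq2, upper quartile scaling, no filter, time as a factor, halved counts, the epithelium score and each of 3 pairs of unusual libraries left out, and in 60 of 60 fits without 1 library (lowest and highest counts 4 and 4 lower, 1 and 1 higher). The epithelium score hardly differed between treatments, so the fit with it was a weak check of these calls. The replicate block with time as a factor gave 4 lower and 1 higher. Same-numbered mice did not deviate together (r from −0.47 to 0.45 over 30 pairs, 8 over 0.1), so numbers do not pair them.

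With the smooth muscle score 0 were lower and 0 higher, and signs turned for Chga (0.092), Chgb (0.021), Insl5 (0.43), Tph1 (0.087), Sst (−0.16) and Cck (−0.20). With the enteric neuron score 0 were lower and 0 higher, and Insl5 (0.16) and Sst (−0.089) turned. With the goblet cell score 0 were higher, and Pyy turned (−0.0068). With the posterior Hox score 2 were higher, and Pyy (−0.14) and Nts (0.69) turned. Pyy also turned without the 2 libraries of most skeletal muscle RNA (−0.0041) and in 18 of 60 fits without 1 library, from −0.037 to 0.051. These scores differ with treatment or position, and the cause was not tested.

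Calls at single times were 1, with 0 under the smooth muscle score or separate fits, 2 with the Hox score, and 0 to 3 without 1 library. With the epithelium score the count was 1 but Sst at ZT20 was not called, so it was another comparison. Rhythmic genes by model selection became 2 in CIA and 3 in naïve with Akaike weights, and 1 in naïve with no filter, the epithelium score, a weight of 0.8 or without 1 library (range 1 to 2). By F test they were 1 to 2 in CIA without 1 library, and in naïve 0 with no filter, 1 with the replicate block or the Hox score, 3 with the epithelium score, and 0 to 2 without 1 library. With group means kept, 17 of 36 pairs correlated in CIA and 17 in naïve, with 30 libraries each. Nts and Cck had median counts of 14 and 89.5, which limits both.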
